A study of Mus musculus with 3 samples.

Results

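The heat shock chaperone genes described here are 10 genes matched by symbol in the GENCODE M21 annotation, out of 55536 annotated genes in the tables. They are grouped by what is known of their regulation: 5 genes are forms that heat and other protein-damaging stress induce (Hspa1a, Hspa1b, Hsp90aa1, Hsph1 and Dnajb1), 3 are forms that most cells make constitutively (Hspa8, Hsp90ab1 and Dnaja1), and Hspd1 and Hspe1 encode the chaperonin of mitochondria. RNA came from naive CD4 T cells, helper T cells that have not yet met antigen, of 1 male mouse aged 5 months of the strain B6.SJL-Ptprca Pepcb/BoyJ, a C57BL/6 line with the CD45.1 allele of Ptprc. PolyA-selected RNA was sequenced in 3 technical libraries of 1 biological replicate, with no treatment named in the labels. Every SD below is therefore a technical spread over these libraries (n = 3), p-values measure that spread alone, and animals or conditions could not be compared.

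Heat shock proteins are chaperones: they hold unfolded proteins and use ATP to help them fold. HSP70 proteins bind short exposed stretches of a client, J-domain proteins (HSP40) deliver clients and switch on the HSP70 ATPase, HSP110 proteins exchange its nucleotide, and HSP90 proteins act late, on signalling proteins such as kinases and steroid receptors. The transcription factor HSF1 drives the inducible genes by binding heat shock elements, repeats of the letters GAA in alternating orientation. In T cells HSP90 clients include the receptor-proximal kinase Lck, and activation of T cells is known to raise many chaperones.

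The libraries held 14800852, 18170786 and 17448768 expected counts assigned to genes (libraries 1, 2 and 3). The label was checked on 9 markers. The T cell genes Cd3e, Cd4, Ccr7 and Tcf7 averaged between 443.8 and 2632 TPM (a level scaled to transcript length and library total), while Cd8a, Cd79a, Lyz2, Ncr1 and Hbb-bs averaged between 0.0267 and 2.06 TPM. Library 2 held more ribosomal RNA, with 1.47% of TPM against 0.575% and 0.635% in libraries 1 and 3, mitochondrial ribosomal RNA included.

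All 10 genes were detected, that is, had at least 1 TPM in every library, as did 44.6% of 22028 protein-coding genes. Together they made up 0.721% ± 0.0504 of TPM. The inducible forms had a median of 370.4 TPM and the constitutive forms one of 1039 TPM, against a median of 31.4 TPM over the 9823 detected protein-coding genes. The inducible forms summed to 1999 ± 81.6 TPM, the constitutive forms to 4922 ± 425 TPM and the mitochondrial pair to 285 ± 6.99 TPM. On TPM of whole genes each inducible form was lower than its constitutive relative in every library. On the M4 counts described further on, Hspa1b and Hsph1 were higher than Hspa8 and Dnajb1 was higher than Dnaja1, and on protein-coding transcripts alone Dnajb1 and Dnaja1 were close, with a log2 ratio of -0.10 ± 0.07.

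**Figure D1:**
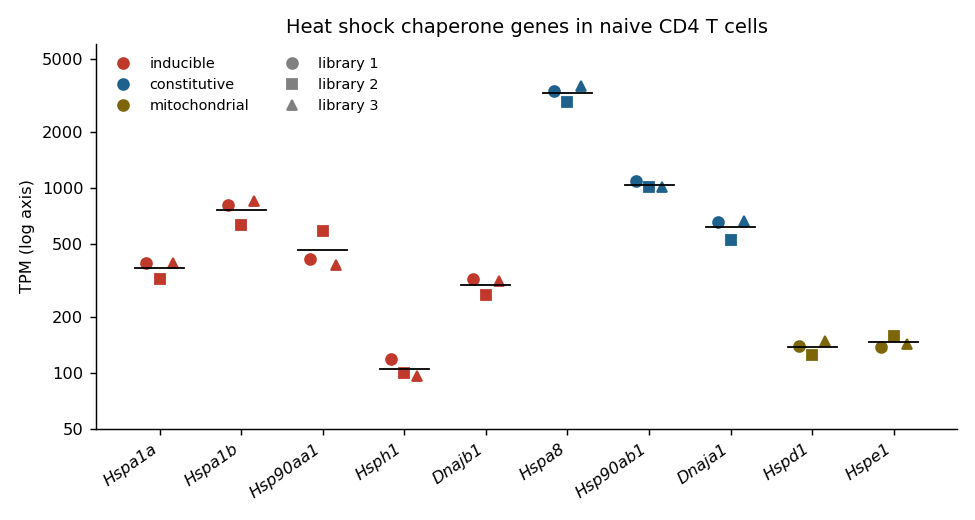
TPM of each gene in each technical library (symbols, log axis), with the mean of the 3 libraries as a line, coloured by form. Hspa8 lies highest, at 2906 to 3571 TPM, and Hsph1 lowest, at 96.6 to 118 TPM; library 2 stands above the other 2 libraries for Hsp90aa1 and below them for Hspa1a and Hspa1b.

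Among HSP70 genes, Hspa1a and Hspa1b encode the major stress-inducible cytosolic protein and lie next to each other on chromosome 17 (34969190 to 34972156 and, 9951 bases away, ending at 34959238; both on the minus strand of GRCm38). Hspa1a had 395, 324 and 392.4 TPM in libraries 1, 2 and 3, from 9890, 10546 and 11683 expected counts. Hspa1b had 811, 631 and 847 TPM, from 19182, 19388 and 23796 expected counts. Library 2 was the lowest for both genes, and their ranges did not overlap. Hspa1a averaged 370.4 ± 40.1 TPM (rank 356 among protein-coding genes) and Hspa1b 763 ± 115 TPM (rank 155).

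These 2 genes are near-identical, so how their reads were divided is uncertain. Their coding sequences, of 1923 and 1926 bases without the stop codon, were identical at 99.4% of aligned positions, with 8 substitutions and 3 gap positions and one identical run of 638 bases. Among stretches of 60 coding bases without a gap, none held more than 2 differences. One with 2 is shown (coding positions 1357 to 1416) with the same stretch of Hspa8 to let the eye compare paralogs: capitals mark the bases that differ between Hspa1a and Hspa1b and, in Hspa8, the 17 bases that differ from Hspa1a.

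Hspa1a: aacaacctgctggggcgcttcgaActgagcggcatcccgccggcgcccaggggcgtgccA
Hspa1b: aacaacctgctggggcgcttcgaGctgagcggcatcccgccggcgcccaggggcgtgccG
Hspa8: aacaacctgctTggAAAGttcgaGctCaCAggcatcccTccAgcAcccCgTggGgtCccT

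Of all 50-base words of the Hspa1a transcript, 66.3% also occur in another gene's transcripts, and of Hspa1b 62.3%; within the coding part the shares were 87.1% and 82.3%, and within the 3′ untranslated part 5.50% and 0%. The length of 50 was taken from the deposited effective lengths, which are 49 bases shorter than the transcripts. Hspa1a held 34.0% of the expected counts of the pair in library 1 (Wilson 95% interval 33.5% to 34.6%), 35.2% in library 2 (34.7% to 35.8%) and 32.9% in library 3 (32.4% to 33.4%). The whole-number counts on the older GENCODE M4 annotation, a separate deposited table, gave shares of 34.6%, 34.7% and 35.3%. Both tables thus put Hspa1a at about the same share of the pair. The M4 shares rest on only 1031, 1006 and 1048 counts of the pair in libraries 1, 2 and 3. Both tables come from the same libraries, so their likeness is no independent check of how reads were divided. The Wilson intervals cover counting error only and not the division of shared reads. The deposited uncertainty of that division, a posterior SD of the count, averaged 1.17% of the count for Hspa1a and 0.551% for Hspa1b. The gene spans of Hspa1a and Gm20481, on opposite strands, also overlap by 2225 bases. Transcripts of Gm20481 hold 16.2% of the 50-base words of Hspa1a and 10.8% of those of Hspa1b, on either strand. The sources used here do not give whether counting used strand, so reads within these shared words may not be told apart. Gm20481 had 25.4, 34.1 and 2.96 TPM in the 3 libraries.

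Hspa8 encodes HSC70, the constitutive cytosolic HSP70, which also uncoats clathrin vesicles and takes part in chaperone-mediated autophagy. It had 3334, 2906 and 3571 TPM in libraries 1, 2 and 3, with a mean of 3270.2 ± 337 TPM (rank 15 among protein-coding genes). Library 2 was again the lowest. The log2 ratio of Hspa1a to Hspa8 was -3.14 ± 0.06 and that of Hspa1b to Hspa8 -2.11 ± 0.09, so the inducible genes stood 8.83-fold and 4.30-fold below Hspa8. On protein-coding transcripts alone, an alternative added after seeing the data, they stood 5.28-fold and 2.57-fold below it, and on M4 CPM, with no length correction, the log2 ratio of Hspa1b to Hspa8 was 0.11. Hspa1a to Hspa1b gave -1.04 ± 0.07. Hsph1, which encodes the inducible HSP110 (HSP105), the nucleotide exchange factor of HSP70, had 118, 100.0 and 96.6 TPM, was the lowest of the 10 genes with a mean of 105 ± 11.8 TPM, and had a log2 ratio to Hspa8 of -4.96 ± 0.21.

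HSP90 is made in the cytosol from an inducible and a constitutive gene. The inducible Hsp90aa1 had 412, 587 and 383 TPM in libraries 1, 2 and 3, from 4943, 9108 and 5705 expected counts, and averaged 460.5 ± 110 TPM. Library 2 stood apart for this gene, above both other libraries. The constitutive Hsp90ab1 had 1093, 1013 and 1011 TPM and averaged 1039 ± 46.9 TPM (rank 98), with the 3 libraries close together. The log2 ratio of Hsp90aa1 to Hsp90ab1 was -1.41, -0.79 and -1.40 in libraries 1, 2 and 3, so the inducible gene was the lower in each library and the gap was smallest in library 2. The 2 coding sequences were identical at 75.3% of aligned positions with a longest identical run of 33 bases, so their coding parts share no word of 50 bases.

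Of the J-domain genes, Dnajb1 encodes the inducible HSP40, which works with HSP70 to dissolve aggregates, and Dnaja1 a constitutive partner of HSC70. Dnajb1 had 323, 264 and 313 TPM and averaged 300.2 ± 31.8 TPM. Dnaja1 had 657, 521 and 661 TPM and averaged 613 ± 79.7 TPM. In both genes library 2 was the lowest. The log2 ratio of Dnajb1 to Dnaja1 was -1.03 ± 0.05 on TPM of whole genes. It was -0.10 ± 0.07 on protein-coding transcripts alone, the same added alternative, where the libraries' spread is close to the difference itself; transcripts of Dnaja1 annotated as noncoding are then left out.

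The mitochondrial chaperonin is a chamber of HSP60 subunits (Hspd1) with a lid of HSP10 subunits (Hspe1). The 2 genes lie head to head on chromosome 1 and overlap by 112 bases at their starts. Hspe1 had 139, 159 and 143 TPM and Hspd1 140.0, 125 and 149.7 TPM. The log2 ratio of Hspe1 to Hspd1 was 0.09 ± 0.23, with values of -0.01, 0.35 and -0.07, so the levels of the 2 genes did not differ beyond the spread between libraries. In order of mean TPM, the ranges of the libraries overlapped between Hspa1b and Dnaja1, Dnaja1 and Hsp90aa1, Hsp90aa1 and Hspa1a, and Hspe1 and Hspd1, while Hspa8, Hsp90ab1, Dnajb1 and Hsph1 did not overlap with their neighbours.

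Transcripts annotated as noncoding took a large part of the TPM of several of these genes. Hspa1a and Hspa1b have 1 annotated transcript each, and Dnajb1 and Hspd1 only protein-coding ones; Dnajb1-201 and Dnajb1-202 took 75.8% ± 0.707 and 24.2% ± 0.707 of the TPM of Dnajb1, and Hspd1-201 took 96.7% ± 0.860 of that of Hspd1. Of the TPM of Hsp90ab1, protein-coding transcripts took 84.0% ± 1.88, nearly all of it Hsp90ab1-201 (79.9% ± 1.82), with 8.25% ± 1.65 in the retained-intron transcript Hsp90ab1-204. In Hspe1, Hspe1-201 took 81.0% ± 1.55 and the retained-intron transcript Hspe1-202 the remaining 19.0% ± 1.55. Retained-intron transcripts keep an intron that is removed from the coding mRNA.

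In Hspa8 the coding transcript Hspa8-202 took 58.4% ± 0.822 of TPM, followed by the retained-intron transcript Hspa8-204 at 16.01% ± 1.03 and the processed transcripts Hspa8-203 at 13.6% ± 0.828 and Hspa8-209 at 8.87% ± 0.870. Protein-coding transcripts held 59.7% ± 0.860 of the TPM of Hspa8 but 83.2% ± 0.265 of its expected counts. The 3 leading noncoding transcripts have 456 to 727 bases against 2019 for Hspa8-202, and TPM divides by length. In Dnaja1, protein-coding transcripts held 52.4% ± 0.787 of TPM. Its coding transcripts Dnaja1-205 and Dnaja1-201 had 33.2% ± 1.56 and 16.01% ± 2.36, and its processed transcripts Dnaja1-208, Dnaja1-206 and Dnaja1-204 had 24.6% ± 0.824, 11.5% ± 1.45 and 7.44% ± 1.18. On protein-coding transcripts alone, Dnajb1 stood at 300.2 ± 31.8 TPM and Dnaja1 at 322 ± 43.8 TPM. Likewise Hsp90aa1 stood at 274 ± 59.6 TPM and Hsp90ab1 at 873 ± 47.3 TPM.

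The leading entry of Hsp90aa1 was no coding transcript. The retained-intron transcript Hsp90aa1-206, of 924 bases, took 35.6% ± 3.03 of its TPM, the full-length coding transcript Hsp90aa1-201 took 29.7% ± 1.93, and the shorter coding entries Hsp90aa1-208 and Hsp90aa1-207 took 17.9% ± 3.09 and 7.42% ± 1.46. Expected counts of Hsp90aa1-201 were 3091, 5048 and 3322 in libraries 1, 2 and 3, and those of Hsp90aa1-206 were 993, 2118 and 1289. Library 2 was the highest for both, so its excess was not confined to the retained-intron entry. Hsph1 had the least stable division of TPM. Its coding transcript Hsph1-211 took 30.0%, 39.7% and 48.9% in libraries 1, 2 and 3, and Hsph1-201 took 20.9% ± 3.92. The processed transcript Hsph1-207 of 254 bases took 20.7% ± 1.84, from only 44.7, 50.5 and 37.7 expected counts. The retained-intron transcripts Hsph1-208 and Hsph1-204 took 8.74% ± 3.65 and 5.30% ± 1.17. Protein-coding transcripts held 62.4% ± 7.55 of the TPM of Hsph1 but 85.2% ± 4.29 of its expected counts.

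**Figure D2:**
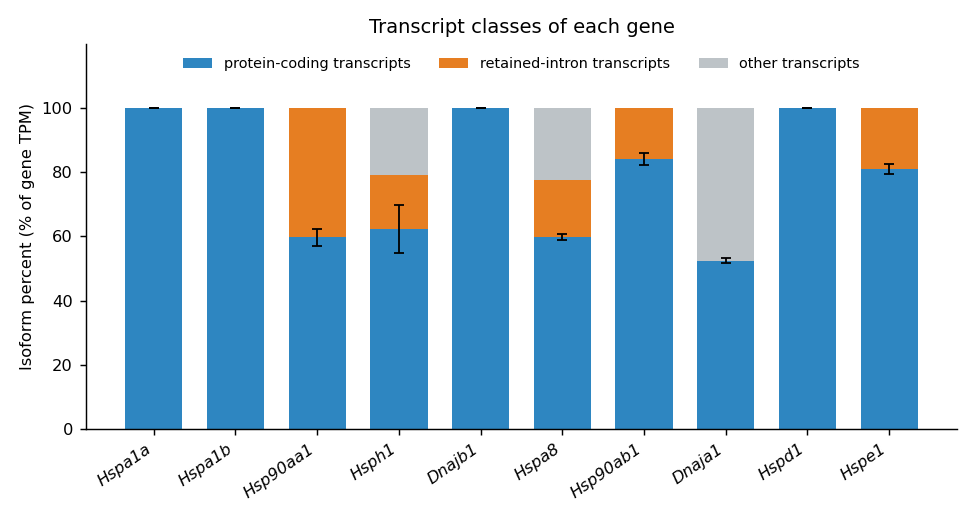
Isoform percent, the share of a gene's TPM, in protein-coding, retained-intron and other transcripts, as the mean over 3 technical libraries; error bars are the SD of the protein-coding share. The protein-coding share was 100% for Hspa1a, Hspa1b, Dnajb1 and Hspd1 and lowest for Dnaja1, at 52.4%.

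Several of these genes share sequence with processed copies elsewhere in the genome, and the 2 deposited count tables gave very unequal counts for them. The 4 lowest ratios of M4 to expected counts belonged to Hspa8, Hspa1b, Hspa1a and Dnaja1, and the highest to Hsph1, which shares no word. The order did not follow the share over the whole transcript throughout, since Hsp90aa1 shares more than Dnaja1 and had the higher ratio. Within the coding part Dnaja1 shared more, 89.0% against 85.4% in Hsp90aa1, but Hspa1b shared less than both, 82.3%, and had a lower ratio than both. Dnajb1 and Hsp90ab1 shared few words of the whole transcript, yet their ratios were near that of Hspd1, which shared 44.8%. Of the 50-base words of the coding reference transcript, 74.8% in Hspa8, 65.6% in Hsp90aa1, 44.8% in Hspe1, 44.8% in Hspd1 and 30.6% in Dnaja1 occurred in other genes, against 4.49% in Hsp90ab1, 0.441% in Dnajb1 and 0% in Hsph1. The M4 counts were 1.34% of the expected counts for Hspa8, 3.35% for Hspa1a, 3.22% for Hspa1b and 4.83% for Dnaja1. They were 9.37% for Hsp90aa1, 14.4% for Hspe1, 18.8% for Hsp90ab1, 21.04% for Hspd1, 21.1% for Dnajb1 and 63.6% for Hsph1. The median over 10709 genes found in both tables was 51.5%, and over their best-covered 10% it was 30.1%. On M4 CPM (counts scaled to a common library total) the log2 ratio of Hspa1b to Hspa8 was 0.11 ± 0.04, that of Hsph1 to Hspa8 1.44 ± 0.10 and that of Dnajb1 to Dnaja1 2.06 ± 0.05, so these 3 ratios turned round. These values have no length correction, and the part of shared reads in the change was not tested.

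Some of the entries that share these words were themselves abundant. Chosen after their values were seen, they include the processed pseudogene Gm15542 at 284, 221 and 290.4 TPM, which holds 26.4% of the words of Dnaja1, and the noncoding gene Gm26825 at 57.4, 37.8 and 63.8 TPM, which holds 69.0% of those of Hspa8. Both were lowest in library 2, as were Dnaja1 and Hspa8. How reads were divided between Dnaja1 and Gm15542 was not tested.

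**Figure D3:**
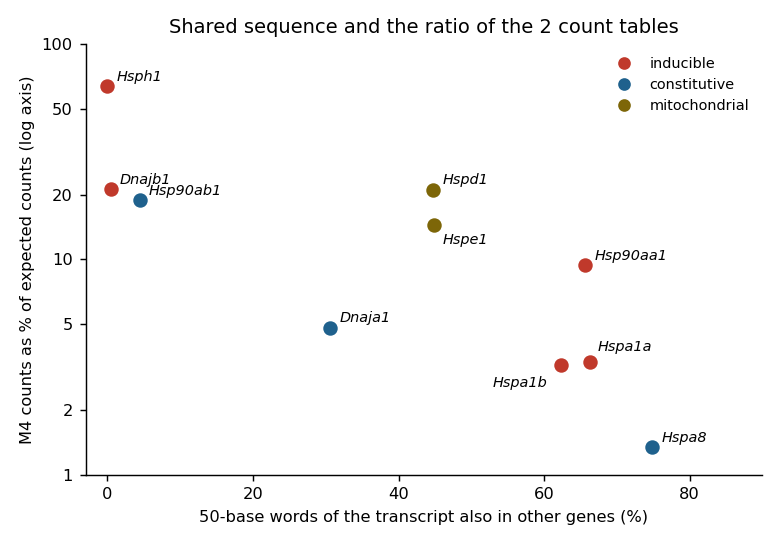
For each gene, the share of 50-base words of its coding reference transcript that occur in another gene (horizontal axis) and its M4 counts as percent of its expected counts, summed over libraries (vertical log axis). Hsph1, with 0% shared, had 63.6%, and Hspa8, with 74.8% shared, had 1.34%. Dnajb1, with 0.441% shared, had 21.1%, and Hspd1, with 44.8% shared, had 21.04%.

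Whether a gene's rounded expected counts fitted one common level in all 3 libraries was tested by chi-square on TMM-scaled library sizes, with Benjamini-Hochberg adjustment over 13090 genes. The test called 9 of the 10 genes, all but Hsph1, against 40.0% of all genes tested and 71.6% of the 3850 genes that averaged 1000 counts or more, a depth that all 10 genes reached. The share of 9 in 10 is to be read against 71.6%. Calls at this depth need only small differences. The share at this depth was computed for this setting only, so shares given below for other settings are over genes of all depths tested. The coefficient of variation of the scaled counts had a median of 6.38% over the 10 genes, beside 6.48% over those 3850 genes, and ranged from 1.95% for Hsph1 to 27.2% for Hsp90aa1. Without library 2 the test called 4 of the 10 genes (Hspa1b, Hspa8, Hsp90ab1 and Hspd1; 14.7% of all genes), and the median coefficient of variation was 1.90%. Without library 1 it called 9 of them (36.8% of all genes) and without library 3 it called 8 (27.6%), while scaling by library totals called 9 (42.4%). On M4 counts it called 3, Hsp90aa1, Dnajb1 and Hsp90ab1, against 18.9% of all genes. M4 counts were lower for all 10 genes, with means from 619 against 46088 expected counts for Hspa8 to 1687 against 2654 for Hsph1. The median coefficient of variation of the 10 genes was 6.73% on M4 counts. Counting error is a larger part of it at these lower counts, so it cannot be set against the 6.38% on expected counts. Why fewer genes were called on M4 counts was not tested.

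Among the 10 genes, Hsp90aa1 differed most between library 2 and the others. A few other chaperone genes, chosen after their values were seen, also stood high there. The J-domain gene Dnajb5 had 30.6 TPM in library 2 against 15.8 and 18.1 TPM in libraries 1 and 3. The prefoldin subunit Pfdn5 had 371 TPM against 237 and 235 TPM. Most genes of their lists went the other way. By TPM, library 2 was lowest for 17 of 26 other J-domain genes and highest for 2. It was lowest for 12 of 15 TRiC and prefoldin genes and highest for 2. In CPM of TMM-scaled library size, Hsp90aa1 had 331, 510.4 and 324 in libraries 1, 2 and 3, so that library 2 was 1.56-fold above the geometric mean of the other libraries (log2 difference 0.64). A difference at least this high was found in 122 of those 3850 genes. Hspe1 was also higher in library 2, with 76.0 in library 2 against 60.8 and 62.7 in libraries 1 and 3 (log2 difference 0.30), and so was Hsp90ab1, by 0.10. The other 7 genes were lower in library 2 than in both other libraries on this scale, with log2 differences from -0.28 for Hspa1b to -0.04 for Hsph1. TPM placed 2 of the 10 genes otherwise. Hsp90ab1 was highest in library 1 (1093, 1013 and 1011 TPM in libraries 1, 2 and 3). Hsph1 was lowest in library 3 (118, 100.0 and 96.6 TPM). Of the 3850 genes, 57.1% had a negative log2 difference, that is, lay below the mean of the log2 values of the other libraries. That criterion is looser than lying below both, and the same 7 of the 10 genes met it. The M4 counts gave log2 differences of 0.35 for Hsp90aa1 and 0.19 for Hspe1, but -0.05 for Hsp90ab1, whose sign turned. Hsph1 stood at 0.00 on M4 counts and Dnaja1 at -0.02, against -0.26 on expected counts. The other 5 genes lay between -0.16 and -0.08. Library 2 is also the library with the most ribosomal RNA, whose part in these differences was not tested.

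**Figure D4:**
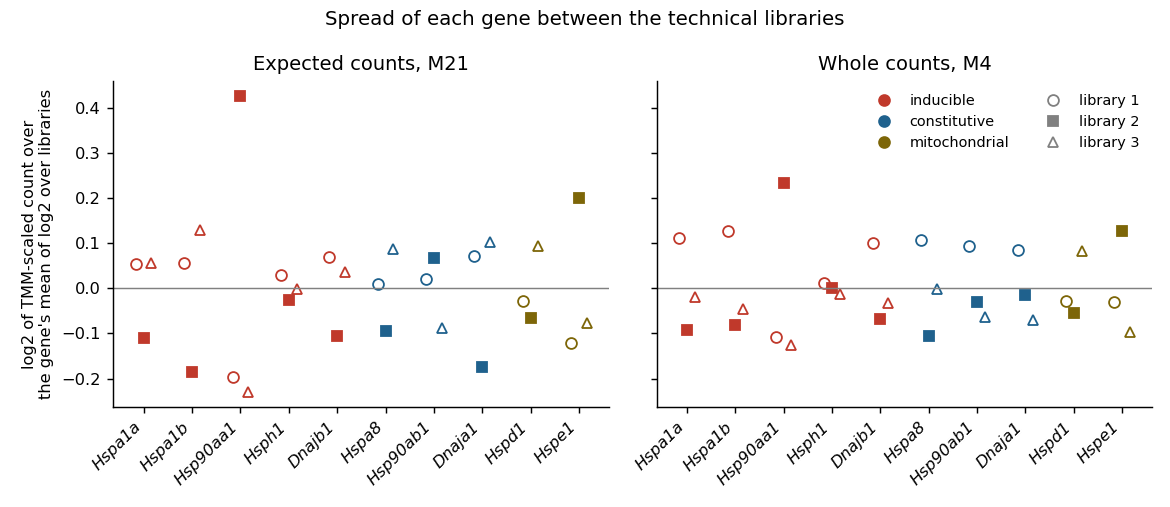
Log2 of each gene's TMM-scaled count in each technical library relative to the gene's mean of log2 values, on expected counts (left) and on M4 counts (right); filled squares are library 2. Hsp90aa1 in library 2 stands at 0.43 on expected counts and 0.23 on M4 counts.

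Promoter sequence was read from RefSeq (GRCm38.p6) for the 7 of these genes in that table, as the 250 bases before each start site, and searched on both strands for paired units (GAANNTTC or TTCNNGAA) and for the overlapping 3-unit form (GAANNTTCNNGAA or TTCNNGAANNTTC). Hspa1a and Hspa1b are printed because both were high and differ in only 3 of these 250 bases; capitals mark the paired unit, which begins at position -104 in both. Hspa1a is at chr17:34972157-34972406 and Hspa1b at chr17:34959239-34959488, both on the minus strand.

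Hspa1a: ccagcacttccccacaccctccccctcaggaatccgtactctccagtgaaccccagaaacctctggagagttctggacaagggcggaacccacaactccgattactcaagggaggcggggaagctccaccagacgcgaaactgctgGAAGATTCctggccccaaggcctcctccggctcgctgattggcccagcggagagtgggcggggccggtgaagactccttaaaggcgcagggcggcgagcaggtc
Hspa1b: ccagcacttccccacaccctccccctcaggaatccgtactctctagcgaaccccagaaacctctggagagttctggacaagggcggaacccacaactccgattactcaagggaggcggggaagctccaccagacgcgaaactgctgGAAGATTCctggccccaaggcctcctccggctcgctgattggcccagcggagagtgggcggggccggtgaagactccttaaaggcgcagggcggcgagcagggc

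A paired unit occurs in 12.8% of all 32851 promoter windows of this length, and a 3-unit form in 0.466%. The 3-unit form was found in 18 bases that lie before the start site of Hspe1 and before the second, internal start site of Hspd1, within an exon of the transcript Hspd1-202. The window before the first start site of Hspd1 held none. The windows of Dnajb1 held none, and the one before its second start site touches an exon of the transcript Dnajb1-201. Single paired units lay before the RefSeq start sites of Hsph1 and before the first one of Dnaja1. In GENCODE M21 these paired units fall within exons of Hsph1-206 and Dnaja1-207, transcripts that start further upstream. These stretches are shown in the direction of each gene with the matched bases in capitals, to compare the inducible Hsph1 with the constitutive Dnaja1 and the mitochondrial pair. They lie at chr5:149636356-149636375 (minus strand) for Hsph1, at chr4:40722338-40722357 (plus strand) for Dnaja1 and at chr1:55088053-55088082 for both Hspe1 (plus strand) and Hspd1 (minus strand).

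Hsph1: gaatctTTCTCGAAggctcg
Dnaja1: cctctaGAAAATTCtacgag
Hspe1: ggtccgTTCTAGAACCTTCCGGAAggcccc
Hspd1: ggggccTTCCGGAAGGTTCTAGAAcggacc

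The matches describe the letters of these windows.

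The rest of the chaperone system was broadly present, apart from the small heat shock proteins. Of the heat shock factor list, 3 of 7 genes were detected: Hsf1, the main activator of the heat shock response, at 174 ± 25.6 TPM, its binding partner Hsbp1 at 105 ± 12.9 TPM, Hsf2 at 4.64 ± 0.688 TPM, while Hsf4 had 0.147 ± 0.0451 TPM. Of 11 other HSP70 and HSP110 genes, 9 were detected, led by Hspa5 (BiP, of the endoplasmic reticulum) at 662.5 ± 127 TPM, Hspa9 (mortalin, of mitochondria) at 194 ± 11.5, Hspa4 at 156 ± 6.91 and Hspa14 at 89.2 ± 13.1 TPM. Hspa1l, the neighbour of Hspa1a on the other strand at a distance of 546 bases, had 0.193 TPM. Both other HSP90 genes were detected, Hsp90b1 at 222 ± 5.23 TPM and Trap1 at 55.8 ± 4.96 TPM. Among 26 other J-domain genes, 23 were detected, with Dnajc7 at 509 ± 27.0, Dnajb6 at 335 ± 22.5, Dnaja2 at 255 ± 6.14 and Dnajc8 at 214 ± 22.6 TPM.

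All 26 co-chaperone genes were detected, with a median of 89.8 TPM. Cdc37, which loads kinases onto HSP90, had 246 ± 19.9 TPM, Stip1 (HOP), which links HSP70 to HSP90, 172 ± 13.6, and Ahsa1, which stimulates the HSP90 ATPase, 159.8 ± 15.2 TPM. Of the TRiC and prefoldin list, which folds actin and tubulin, 14 of 15 genes were detected, with a median of 164 TPM, led by Cct5 at 385 ± 44.4, Cct6a at 305 ± 29.6, Cct8 at 300.5 ± 33.8 and Cct7 at 283 ± 29.1 TPM. In the endoplasmic reticulum list 15 of 16 genes were detected, with Pdia3 at 384 ± 49.8 and Calr at 300.1 ± 17.8 TPM after Hspa5 and ahead of Hsp90b1. All 12 genes of the mitochondrial list were detected, with Dnajc19 at 75.1 ± 7.995, Dnajc15 at 64.4 ± 4.11 and Yme1l1 at 62.9 ± 6.90 TPM after Hspa9. Of 10 genes listed as small heat shock proteins, 2 were detected: Hspb6 at 3.66 ± 0.565 TPM and Hspb11, counted here by its symbol alone, at 16.8 ± 2.61 TPM. Hspb1 had 1.44 ± 1.08 and Hspb9 0.217 ± 0.103 TPM. Hspb3, Cryaa, Hspb7 and Hspb8 had 0 counts in every library; with counting error, 0 is compatible with as many as 3 counts per library.

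**Figure D5:**
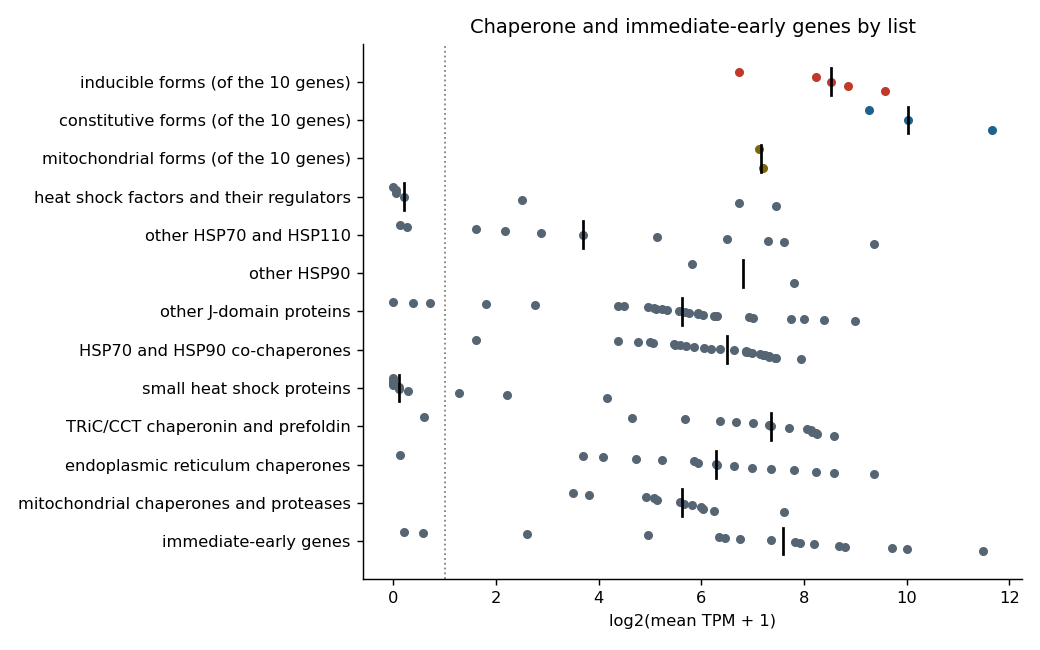
Mean TPM over 3 technical libraries of each gene, as log2(TPM + 1), by list; the black bars are medians and the dotted line stands at 1 TPM. The 10 chaperone genes lie at 105 TPM or above, while the median of the small heat shock protein list was 0.0750 TPM.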

How the data were processed

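Per the accompanying text of the authors' deposit, reads were placed on mm10. Genes and transcripts were quantified on GENCODE M21, and a second deposited table holds whole-number read counts per gene on GENCODE M4. The sources used here do not give the aligner, counting tool or strand setting. Expected counts (estimated reads that need not be whole), TPM and isoform percent were used as the authors deposited them; the TPM columns also list spike-in entries. Entries that name no gene, with 0.247%, 0.200% and 0.325% of expected counts, were left out. The effective length and the posterior SD of the count were also deposited by the authors.

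The genes, lists, pairs and tests were chosen with earlier results of these data known. Named were the 10 genes, the 4 genes of highest mean TPM in each list (1 of them is not reported here), the label markers and transcripts with a mean of at least 5% of a gene's TPM. Expected counts were rounded and scaled with edgeR 4.0.16 in R 4.3.3 (TMM), keeping genes that averaged 10 counts or more; pair ratios used log2(TPM + 0.1). Chi-square tests used scipy 1.17.1 with a threshold of 0.05 and were run on simulated counts that held counting error alone. That run covers neither the division of shared reads nor further variation between libraries. DESeq2 1.42.0 size factors served as an alternative. Shared words were counted as exact matches on either strand in the M21 transcripts, for the protein-coding transcript with the longest coding part.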

Additional observations from a re-analysis of the deposited data

How the results depend on the processing

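The detection of all 10 genes, the leading isoform shares, and the pair ratios under posterior mean estimates and pseudocounts of 1 and 0.01 each moved by less than the spread between libraries. The count of 9 genes that differed between libraries was the same under DESeq2 size factors, library totals and no count minimum. The test called 40.0%, 42.4% and 15.5% of all genes tested under these settings, the last over 31508 genes. The count of called genes was 3 on M4 counts, which were lower for all 10 genes, against 18.9% of all genes tested. It ranged from 4 to 9 when each library was left out, against 14.7% to 36.8% of all genes tested. The median coefficient of variation ranged from 1.90% to 8.59% when each library was left out, with the lowest value without library 2. On M4 CPM, which lack length correction, the log2 ratios were -0.79 for Hspa1a to Hspa8, 0.11 for Hspa1b to Hspa8, -0.90 for Hspa1a to Hspa1b, -2.74 for Hsp90aa1 to Hsp90ab1, 2.06 for Dnajb1 to Dnaja1, 1.44 for Hsph1 to Hspa8 and -2.06 for Hspe1 to Hspd1; the cause was not tested. On protein-coding transcripts alone, an alternative added after seeing the data, they were -2.40 for Hspa1a to Hspa8, -1.36 for Hspa1b to Hspa8, -1.69 for Hsp90aa1 to Hsp90ab1, -0.10 for Dnajb1 to Dnaja1 and -0.21 for Hspe1 to Hspd1, since transcripts annotated as noncoding are then left out. With 1 animal and technical libraries, none of these values covers variation between animals.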

Other observations

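Immediate-early genes, transcription factors and regulators that cells switch on rapidly after stimulation, were listed for reference, and 14 of 16 were detected with a median of 195 TPM. Junb had 2883 ± 568 TPM, Jund 1028 ± 221, Klf6 842 ± 113 and Ier2 444 ± 56.0 TPM. Atf3 and Ier3 averaged 0.500 and 0.153 TPM. In 13 of the 16 genes the TPM was lowest in library 2, which was also the lowest for 12 of 15 TRiC and prefoldin genes, 9 of 11 other HSP70 and HSP110 genes and 18 of 26 co-chaperone genes. The share of all genes with their lowest TPM in library 2 was not computed, so these counts cannot be read as a trait of the lists.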
